A study of Homo sapiens with 12 samples.

Results

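The genes described here were the transactivator CIITA and 9 genes of the major histocompatibility complex (MHC) class II pathway, CD74, HLA-DRA, HLA-DRB1, HLA-DPA1, HLA-DPB1, HLA-DQA1, HLA-DQB1, HLA-DMA and HLA-DMB. They were chosen by name, as the rows of the deposited count table that carried these symbols, and made up 10 of the 60591 genes listed. Of these 10, 9 passed the filter on low counts and were tested among 19108 genes, and HLA-DQA1 was not tested. The study asked which genes control cell death after inhibition of the epidermal growth factor receptor (EGFR), and poly(A) RNA was sequenced from PC9 and H1650, established non-small cell lung cancer lines that both carry an activating deletion in EGFR. Each line gave 2 libraries at T0 (0.1% DMSO, 0 h), 2 libraries after 36 h in 10 µM erlotinib and 2 libraries after 36 h in 0.1 µM osimertinib. Erlotinib is a reversible first-generation EGFR inhibitor and osimertinib a covalent third-generation one. All 12 libraries came from cells labelled wild type, which here means not edited by the study, and all cells were seeded the day before the drug was added.

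MHC class II molecules present peptides from endocytosed proteins to CD4+ T cells. An alpha and a beta chain pair in the endoplasmic reticulum with the invariant chain, CD74, which blocks the peptide groove until lysosomal proteases cut it to a short remnant, and HLA-DM then exchanges that remnant for peptide. The genes are constitutively on in B cells, dendritic cells and macrophages, are found in part of the lung epithelium and its tumours, and elsewhere depend on interferon gamma, whose signal, in part through IRF1, turns on CIITA, the coactivator that binds no DNA itself and docks on factors held at the class II promoters.

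These promoters share an X box, bound by the RFX complex and CREB family factors, and a Y box, bound by NF-Y. RefSeq promoter windows on GRCh38.p14, from 250 bases before to 50 bases after the gene start, were found for 8 of the 10 genes, as 9 windows. CIITA and HLA-DRA had no entry. Of the 9 windows, 5 are shown, each 5′ to 3′ on the gene's own strand. They belong to genes that rose with a drug in at least 1 line. HLA-DPA1 and HLA-DPB1 also rose in H1650, and HLA-DQA1, which was not tested, had more reads with drug in both lines. The windows of these genes are not shown. Capitals mark GCAAC (letters of the X box), GATGATG (letters next to it, chosen after the sequences were seen) and ATTGG (the core of the Y box), on either strand, so that ATTGG on the opposite strand reads CCAAT.
HLA-DRB1, chr6:32589799-32590098, minus strand: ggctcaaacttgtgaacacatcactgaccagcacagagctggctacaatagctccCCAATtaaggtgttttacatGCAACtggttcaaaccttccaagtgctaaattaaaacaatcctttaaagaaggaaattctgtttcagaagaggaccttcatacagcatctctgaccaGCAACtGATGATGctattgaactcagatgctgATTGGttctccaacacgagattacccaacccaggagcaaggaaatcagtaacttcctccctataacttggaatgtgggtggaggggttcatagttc
HLA-DMA, chr6:32953048-32953347, minus strand: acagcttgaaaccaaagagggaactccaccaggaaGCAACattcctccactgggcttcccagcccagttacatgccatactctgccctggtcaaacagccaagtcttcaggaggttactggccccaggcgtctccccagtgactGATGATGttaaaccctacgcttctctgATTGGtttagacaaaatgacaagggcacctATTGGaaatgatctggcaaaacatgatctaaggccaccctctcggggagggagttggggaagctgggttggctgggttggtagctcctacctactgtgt
HLA-DMB, chr6:32940979-32941278, minus strand: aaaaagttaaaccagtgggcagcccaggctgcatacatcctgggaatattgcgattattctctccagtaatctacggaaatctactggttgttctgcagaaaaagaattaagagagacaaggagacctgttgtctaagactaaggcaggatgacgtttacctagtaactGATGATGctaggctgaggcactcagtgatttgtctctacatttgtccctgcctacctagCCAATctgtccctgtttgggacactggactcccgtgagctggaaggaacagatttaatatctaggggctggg
HLA-DQB1, chr6:32666608-32666907, minus strand: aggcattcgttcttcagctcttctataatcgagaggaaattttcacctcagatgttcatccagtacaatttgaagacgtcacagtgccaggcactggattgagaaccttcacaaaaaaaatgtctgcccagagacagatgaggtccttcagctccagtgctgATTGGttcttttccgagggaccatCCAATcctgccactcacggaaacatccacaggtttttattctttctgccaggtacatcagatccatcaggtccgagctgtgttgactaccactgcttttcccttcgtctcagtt
CD74, chr5:150412861-150413160, minus strand: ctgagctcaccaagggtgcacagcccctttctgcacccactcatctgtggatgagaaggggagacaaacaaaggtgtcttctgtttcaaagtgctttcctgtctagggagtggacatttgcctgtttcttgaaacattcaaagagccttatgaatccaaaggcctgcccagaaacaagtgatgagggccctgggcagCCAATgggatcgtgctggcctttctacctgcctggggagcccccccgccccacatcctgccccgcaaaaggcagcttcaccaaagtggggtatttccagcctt

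Only the HLA-DRB1 window among the 9 held GCAAC followed by ATTGG on one strand with their first bases 15 to 45 bases apart. The gap was 32 bases and GCAAC began at position -78 from the gene start. That arrangement was in 1.11% of 35114 RefSeq promoter windows of the same length. Of the 9 windows, only those of HLA-DRB1, HLA-DMA and HLA-DMB, all of them shown, held GATGATG, beginning at -72, -106 and -81. It was in 2.84% of all windows. ATTGG was common, at 34.6% of all windows, as was GCAAC at 33.6%. A match of letters is a description of these windows and was not tested for binding.

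Libraries held 17961765 to 26346187 counted reads, with a median of 21581420.5. Levels are given as reads and as normalized CPM (reads scaled to library size, with trimmed mean of M-values factors), with the mean ± SD of the 2 libraries of a group. A count of 3 reads was taken as the floor and stood at 0.116 to 0.168 CPM, depending on the library. This floor and all counting intervals cover counting error only. The study describes the replicates as biological, but the labels do not say whether they were separate cultures, so the p-values measure the spread between these libraries, which may be technical. Epithelial markers (EPCAM, CDH1 and keratins) summed to 6162 to 13298 CPM in each library. Of 12 blood cell markers, MS4A1, CD1C and CLEC9A had 0 reads in all 12 libraries and PTPRC had at most 5, while CSF1R reached 1364 reads in H1650 T0, ITGAM 395 in PC9 with osimertinib and CD14 83 in H1650 with osimertinib.

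The question of the T0 comparison was how far the class II genes differed between the lines before drug. H1650 had the chains that PC9 lacked. HLA-DRA, the alpha chain of HLA-DR, had 27 and 32 reads in H1650 T0 and 1 and 0 in PC9 T0, a ratio of 49.95 with a 95% counting interval of 8.62 to 2006. HLA-DPA1, the alpha chain of HLA-DP, had 21 and 40 reads in H1650 T0 and 0 in both PC9 libraries, so it was at least 8.43-fold higher against a floor of 3 reads per library. HLA-DPB1, its beta chain, had 5 and 6 reads against 0 and 0, at least 1.55-fold higher. These 3 genes also had 0 reads in the 4 drug-treated PC9 libraries, so they passed the filter through H1650 alone.

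Genes detected in both lines at T0 differed in both directions. HLA-DMA, the alpha chain of the peptide exchanger, was at 6.41 ± 1.47 CPM in H1650 and 2.39 ± 0.176 in PC9, a log2 difference of 1.43 (SE 0.211, adjusted p = 5.4e-07). HLA-DQB1, the beta chain of HLA-DQ, was higher by 1.14 on the log2 scale (SE 0.248, adjusted p = 0.000164) and HLA-DRB1, the main beta chain of HLA-DR, by 1.22 (SE 0.441, adjusted p = 0.0134). The HLA alleles of the lines were not determined here. Any part of allele-dependent read mapping in such differences between the lines was not tested. The HLA-DRB1 call was lost without PC9 T0 replicate 2 (0.92, adjusted p = 0.125) and without H1650 T0 replicate 1 (0.94, adjusted p = 0.107). CD74 went the other way, at 14.7 ± 0.142 CPM in H1650 and 21.1 ± 0.103 in PC9, a log2 difference of -0.52 (SE 0.128, adjusted p = 0.000740). CIITA was at 1.19 ± 0.229 and 1.32 ± 0.439 CPM, with overlapping libraries and a log2 difference of -0.14 (95% interval -0.81 to 0.53). HLA-DMB, the other exchanger chain, had 7 and 8 reads in H1650 and 0 and 4 in PC9, a log2 difference of 1.61 that did not pass (SE 1.03, adjusted p = 0.126). It passed without PC9 T0 replicate 2, which left PC9 T0 at 0 reads (adjusted p = 0.0187). In all, 6 of 9 tested genes were higher in H1650 and 1 was lower, beside 35.8% and 33.8% of all tested genes. As HLA-DRA, HLA-DPA1 and HLA-DPB1 could only have been called higher, nothing is read from this count against that background.

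**Figure D1:**
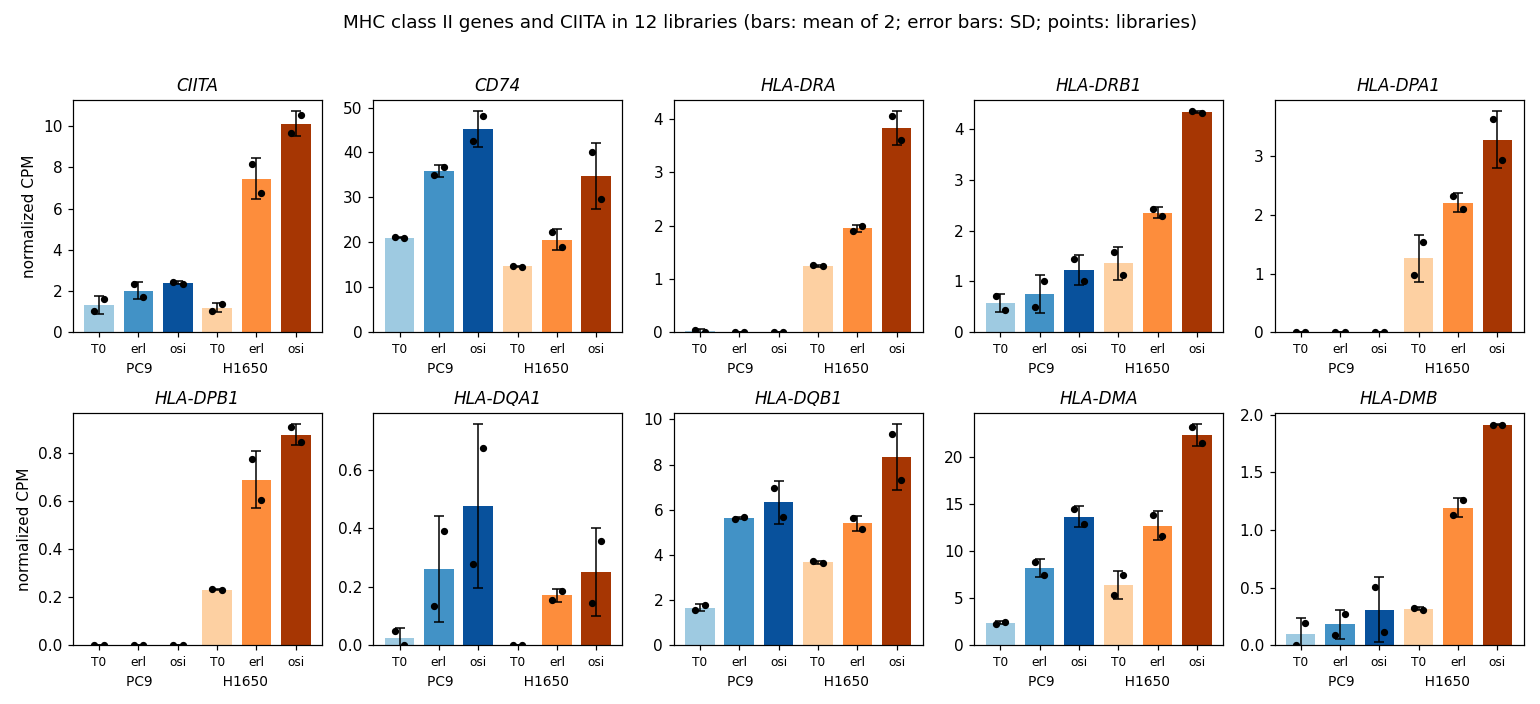
Normalized CPM (y axis, linear, own scale in each panel) of the 10 genes in the 6 groups (x axis: T0, erl for erlotinib and osi for osimertinib in PC9, in blue, and in H1650, in orange). Bars are means of 2 libraries, error bars their SD and points the libraries. HLA-DRA, HLA-DPA1 and HLA-DPB1 stand at or near 0 in PC9 and are present in H1650, where CIITA rises from 1.19 to 10.1 CPM with osimertinib.

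The drug comparisons asked how each gene moved from T0 of its own line to 36 h of drug. No vehicle library at 36 h was analysed here, so drug and time in culture cannot be told apart, and both drugs of a line share the same T0 libraries. In bulk libraries, a change in the number of expressing cells and a change in RNA per cell cannot be told apart either.

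CIITA had 22 and 35 reads in H1650 T0, 158 and 145 with erlotinib and 203 and 237 with osimertinib. Every treated H1650 library was thus far above both T0 libraries. The log2 fold change was 2.63 with erlotinib (SE 0.270, adjusted p = 3.6e-09) and 3.07 with osimertinib (SE 0.266, adjusted p = 1.3e-10), from 1.19 ± 0.229 CPM to 7.45 ± 0.991 and 10.1 ± 0.613. In PC9 the reads were 20 and 33 at T0, 52 and 44 with erlotinib and 53 and 42 with osimertinib. The change there was 0.60 with erlotinib (SE 0.301, adjusted p = 0.0804), which did not pass the threshold, and 0.86 with osimertinib (SE 0.302, adjusted p = 0.0137). The osimertinib call in PC9 was lost without PC9 T0 replicate 1 (0.56, adjusted p = 0.181) and without PC9 osimertinib replicate 1 (0.83, adjusted p = 0.0602), and erlotinib passed without PC9 T0 replicate 2 (0.99, adjusted p = 0.0321), without PC9 erlotinib replicate 2 (0.81, adjusted p = 0.0453) and with upper quartile normalization (0.70, adjusted p = 0.0471). CIITA lies at chr16:10866222-10943021 (GRCh38, plus strand), and exons of DEXI on the other strand overlap its own. The strand setting of the counting was not given in the sources used here, so reads of the overlap could not be assigned. DEXI itself changed by -1.67 and -1.47 in PC9 (erlotinib and osimertinib, adjusted p = 5.4e-06 and 3.7e-05), and had log2 values of 0.14 and 0.29 in H1650 (adjusted p = 0.704 and 0.390).

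CD74, the invariant chain, lies on chromosome 5 and outside the MHC. Its reads in PC9 were 419 and 425 at T0, 781 and 943 with erlotinib and 918 and 857 with osimertinib. In H1650 they were 317 and 378, then 433 and 406, then 838 and 666. Treated and T0 libraries did not overlap in CPM in either line. CD74 rose with both drugs in both lines, by 0.77 (SE 0.119) and 1.10 (SE 0.119) in PC9 and by 0.49 (SE 0.128) and 1.24 (SE 0.123) in H1650, with adjusted p between 4.7e-09 and 0.00324. The H1650 erlotinib call was lost without H1650 erlotinib replicate 1 (0.37, adjusted p = 0.0717).

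Both HLA-DR chains were present in H1650. HLA-DRA had 37 and 43 reads in H1650 with erlotinib and 85 and 81 with osimertinib, from 27 and 32 at T0. HLA-DRB1 had 34 and 29, then 47 and 49, then 91 and 97. Both rose with osimertinib, HLA-DRA by 1.62 (SE 0.356, adjusted p = 0.000688) and HLA-DRB1 by 1.69 (SE 0.328, adjusted p = 0.000136). With erlotinib every treated library was above T0, but the log2 changes of 0.65 (SE 0.376, adjusted p = 0.189) and 0.81 (SE 0.345, adjusted p = 0.0672) did not pass. With 1 fit per cell line HLA-DRB1 passed there (0.81, adjusted p = 0.0337). In PC9, HLA-DRB1 had 14 and 9 reads at T0, 11 and 26 with erlotinib and 31 and 18 with osimertinib, alongside at most 1 read of HLA-DRA. The osimertinib change of 1.10 passed (SE 0.453, adjusted p = 0.0333) and was lost without PC9 T0 replicate 2 (0.80, adjusted p = 0.214), without PC9 osimertinib replicate 1 (0.81, adjusted p = 0.238), with DESeq2 (1.09, adjusted p = 0.0904), without the filter (1.01, adjusted p = 0.0534) and with 1 fit per cell line (1.03, adjusted p = 0.0783). HLA-DRB5, a close paralog, and HLA-DRB6, a related pseudogene, had at most 2 and 4 reads. How reads shared with such copies were assigned was not given, so HLA-DRB1 counts are uncertain in that respect.

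The HLA-DP chains were measured in H1650 only. HLA-DPA1 had 21 and 40 reads at T0, 45 and 45 with erlotinib and 76 and 66 with osimertinib. HLA-DPB1 had 5 and 6, then 15 and 13, then 19 and 19. Treated libraries were above T0 for both genes and both drugs. The osimertinib changes were 1.36 (SE 0.373, adjusted p = 0.00510) and 1.89 (SE 0.681, adjusted p = 0.0252), and the erlotinib changes of 0.79 and 1.54 did not pass (adjusted p = 0.114 and 0.0767). HLA-DPB1 passed with erlotinib under 1 fit per cell line (adjusted p = 0.0409). It entered the test only through drug-treated H1650 libraries, so its H1650 p-values are no independent evidence of a rise. HLA-DPA1 lost its osimertinib call without H1650 T0 replicate 1 (1.09, adjusted p = 0.0728) or H1650 osimertinib replicate 1 (1.21, adjusted p = 0.0605). HLA-DPB1 lost it without the filter (1.88, adjusted p = 0.0534), without either T0 replicate and without either osimertinib replicate, with changes of 1.84 to 1.94 and adjusted p of 0.102 to 0.142. The 2 genes overlap on opposite strands at chr6:33064569-33080775 and chr6:33075926-33087201.

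HLA-DQB1 rose with both drugs in both lines. It had 31 and 36 reads in PC9 T0, 125 and 145 with erlotinib and 151 and 101 with osimertinib, and 80 and 94, 109 and 111, and 196 and 164 in H1650. No treated library overlapped T0 of its line. It rose by 1.75 (SE 0.240) and 1.92 (SE 0.241) in PC9 and by 0.55 (SE 0.204) and 1.18 (SE 0.196) in H1650, with adjusted p from 3.5e-08 to 0.0349. The H1650 erlotinib call was lost with DESeq2 (0.53, adjusted p = 0.127), without the filter (0.53, adjusted p = 0.0719) and without each of H1650 T0 replicates 1 and 2 and H1650 erlotinib replicates 1 and 2 (0.49 to 0.61, adjusted p of 0.0724 to 0.165). HLA-DQA1, its alpha chain partner, had 1 and 0 reads in PC9 T0, 3 and 10 with erlotinib and 6 and 12 with osimertinib, and 0 and 0, 3 and 4, and 3 and 8 in H1650. The ratios of drug to T0 in PC9 were 10.9 (95% counting interval 1.63 to 462) and 18.3 (2.89 to 762), and in H1650 the gene was at least 1.33-fold and 1.95-fold higher against a floor of 3 reads per library. HLA-DQA2 had at most 1 read in any library and HLA-DQB2 none, and reads split between copies are uncertain. How well reads of each line's own alleles were mapped was not tested for these genes.

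HLA-DMA, one chain of the peptide exchanger, rose in all 4 comparisons. Its reads in PC9 were 45 and 51 at T0, 198 and 192 with erlotinib and 312 and 229 with osimertinib, and in H1650 115 and 193, 267 and 249, and 484 and 482. Every treated library was above T0 in CPM. The changes were 1.77 (SE 0.207) and 2.51 (SE 0.203) in PC9 and 0.97 (SE 0.162) and 1.79 (SE 0.155) in H1650, with adjusted p at or below 2.0e-05. Its exons overlap those of BRD2 on the other strand, which stood at 188 to 308 CPM as a group mean and had log2 fold changes of -0.16, -0.15, -0.06 and 0.14 in the same comparisons. BRD2 was higher in H1650 than in PC9 at T0 by 0.41 (SE 0.0667, adjusted p = 3.8e-06). Its drug change in H1650 minus that in PC9 was 0.10 with erlotinib (adjusted p = 0.449) and 0.29 with osimertinib (adjusted p = 0.0143). Reads of this overlap could not be assigned either, and their part in the HLA-DMA values was not tested. HLA-DMB, the other chain, had 7 and 8 reads in H1650 T0, 22 and 27 with erlotinib and 40 and 43 with osimertinib, with log2 changes of 1.90 (SE 0.642, adjusted p = 0.0163) and 2.57 (SE 0.624, adjusted p = 0.000987). Like HLA-DPB1 it entered the test only through drug-treated H1650 libraries, so these p-values are no independent evidence of a rise. The erlotinib call was lost with DESeq2 (1.89, adjusted p = 0.0569), without H1650 T0 replicate 1 or 2 (1.93 and 1.85, adjusted p = 0.0544 and 0.0755) and without H1650 erlotinib replicate 2 (1.82, adjusted p = 0.0673). In PC9, HLA-DMB had 0 and 4 reads at T0, 2 and 7 with erlotinib and 11 and 2 with osimertinib, which overlap, and its changes of 0.87 and 1.65 had standard errors of 1.09 and 1.05. The osimertinib change passed without PC9 T0 replicate 2, the replicate that held all T0 reads (adjusted p = 0.0216), and without PC9 osimertinib replicate 2 (2.28, adjusted p = 0.0465).

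Counted together in PC9, 3 of 9 tested genes rose with erlotinib (CD74, HLA-DQB1 and HLA-DMA), where 32.7% of all tested genes rose. With osimertinib 5 rose, adding CIITA and HLA-DRB1, against a background of 32.7%. HLA-DRA, HLA-DPA1 and HLA-DPB1, with at most 1 read in any PC9 library, could be called in neither direction there. In H1650, 5 rose with erlotinib (CIITA, CD74, HLA-DQB1, HLA-DMA and HLA-DMB; background 18.0%) and 9 with osimertinib (background 17.8%). None of the 9 was called lower in any of these comparisons. Over all tested genes 29.1% and 28.7% fell in PC9 and 18.5% and 17.9% in H1650, from which nothing is read, since up to 3 of the 9 could not have fallen. The count was also 0 at an unadjusted p under 0.05 and with DESeq2. The median log2 change of the 9 in H1650 was 0.81 with erlotinib and 1.69 with osimertinib, beside 0.01 and 0 over all tested genes. HLA-DPB1 and HLA-DMB passed the filter only through drug-treated H1650 libraries, so they had to be higher there. These counts and medians are descriptions of the genes that passed.

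**Figure D2:**
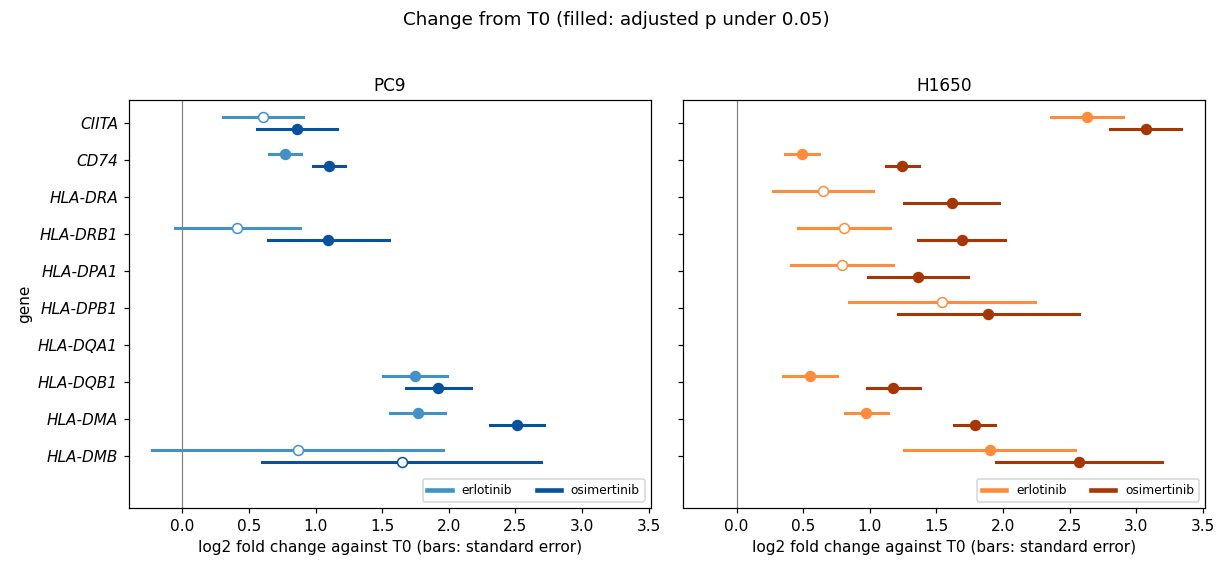
Log2 fold change against T0 (x axis, the same in both panels) of the tested genes in PC9 (left) and H1650 (right), in the lighter colour for erlotinib and the darker for osimertinib. Points are edgeR estimates, bars their standard errors and filled points have an adjusted p under 0.05; HLA-DQA1 was not tested, and HLA-DRA, HLA-DPA1 and HLA-DPB1 have no PC9 value at 0 or 1 read. CIITA in H1650 stands at 2.63 and 3.07, against 0.60 and 0.86 in PC9.

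The next question was whether the drug response itself differed between the lines. It was tested as a drug-by-line term on the log2 scale, positive where H1650 rose more on that scale. CIITA rose more in H1650, by 2.02 with erlotinib (SE 0.405, adjusted p = 0.000172) and by 2.21 with osimertinib (SE 0.402, adjusted p = 5.1e-05). DEXI, whose exons overlap those of CIITA, had terms of 1.81 (SE 0.371, adjusted p = 0.000201) and 1.76 (SE 0.371, adjusted p = 0.000271). Reads of the overlap could not be assigned, and their part in the CIITA terms was not tested. HLA-DMA rose more in PC9, with differences of -0.80 (SE 0.263, adjusted p = 0.0150) and -0.72 (SE 0.256, adjusted p = 0.0223). HLA-DQB1 also rose more in PC9 with erlotinib, at -1.20 (SE 0.315, adjusted p = 0.00265), and the osimertinib difference of -0.75 did not pass (SE 0.311, adjusted p = 0.0534). CD74 gave differences of -0.28 (95% interval -0.64 to 0.08) and 0.14 (-0.21 to 0.49), and HLA-DRB1 0.40 (-0.80 to 1.59) and 0.59 (-0.56 to 1.74). Thus 1 gene was higher and 2 were lower with erlotinib (21.1% and 19.8% of all tested genes), and 1 was higher and 1 lower with osimertinib (21.5% and 20.5%). HLA-DRA, HLA-DPA1 and HLA-DPB1 have no usable value of this term, as PC9 was at or under the floor. The CIITA differences kept their call under each alternative run, from 1.64 to 2.33 with erlotinib. The HLA-DMA differences were lost without H1650 T0 replicate 2 (-0.53, adjusted p = 0.153, and -0.45, adjusted p = 0.213) and without PC9 T0 replicate 1 (-0.72, adjusted p = 0.0698, and -0.65, adjusted p = 0.0982). The erlotinib one was also lost without PC9 erlotinib replicate 1 (adjusted p = 0.0582) or H1650 erlotinib replicate 2 (0.0654), and the osimertinib one without PC9 osimertinib replicate 1 (0.0818) or H1650 osimertinib replicate 2 (0.0642), with DESeq2 (-0.72, adjusted p = 0.0597) and without the filter (-0.65, adjusted p = 0.0518). The HLA-DQB1 osimertinib difference passed with the replicate number as a block (adjusted p = 0.0437), with upper quartile normalization (-0.80, adjusted p = 0.0370), with at least 10 counts in every library (-0.78, adjusted p = 0.0346), without PC9 osimertinib replicate 2 (-0.88, adjusted p = 0.0363) and without H1650 osimertinib replicate 1 (-0.92, adjusted p = 0.0330).

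Osimertinib was then set against erlotinib within a line. The doses differed, so drug and dose cannot be told apart. In H1650, CD74 was higher with osimertinib by 0.76 (SE 0.120, adjusted p = 7.9e-05), HLA-DMA by 0.81 (SE 0.146, adjusted p = 0.000337) and HLA-DQB1 by 0.63 (SE 0.190, adjusted p = 0.0365), 3 of 9 genes where 5.02% of all genes were higher, and none was lower, where 3.73% were. In PC9, HLA-DMA was higher by 0.74 (SE 0.156, adjusted p = 0.00103) and CD74 by 0.33 (SE 0.113, adjusted p = 0.0433), and none was lower, beside 10.1% and 6.41% of all tested genes. HLA-DRA, HLA-DPA1 and HLA-DPB1 had 0 reads in these 4 PC9 libraries and could not be called. CIITA differed by 0.44 in H1650 (95% interval 0.03 to 0.86, adjusted p = 0.192) and by 0.26 in PC9 (-0.30 to 0.81, adjusted p = 0.600). HLA-DRA and HLA-DRB1 were higher in both osimertinib libraries of H1650 than in both erlotinib libraries, by 0.97 and 0.88, without passing (adjusted p = 0.0811 and 0.0758), and passed with 1 fit per cell line (adjusted p = 0.0281 and 0.0373). The PC9 CD74 call was lost with DESeq2 (adjusted p = 0.0853), with upper quartile normalization (0.31, adjusted p = 0.0599) and without PC9 erlotinib replicate 1 (0.29, adjusted p = 0.185), PC9 erlotinib replicate 2 (0.37, adjusted p = 0.0789) or PC9 osimertinib replicate 2 (0.24, adjusted p = 0.325). The H1650 HLA-DQB1 call was lost with DESeq2 (adjusted p = 0.0972) and without H1650 erlotinib replicate 1 (0.68, adjusted p = 0.106), H1650 erlotinib replicate 2 (0.57, adjusted p = 0.209) or H1650 osimertinib replicate 1 (0.44, adjusted p = 0.394).

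**Figure D3:**
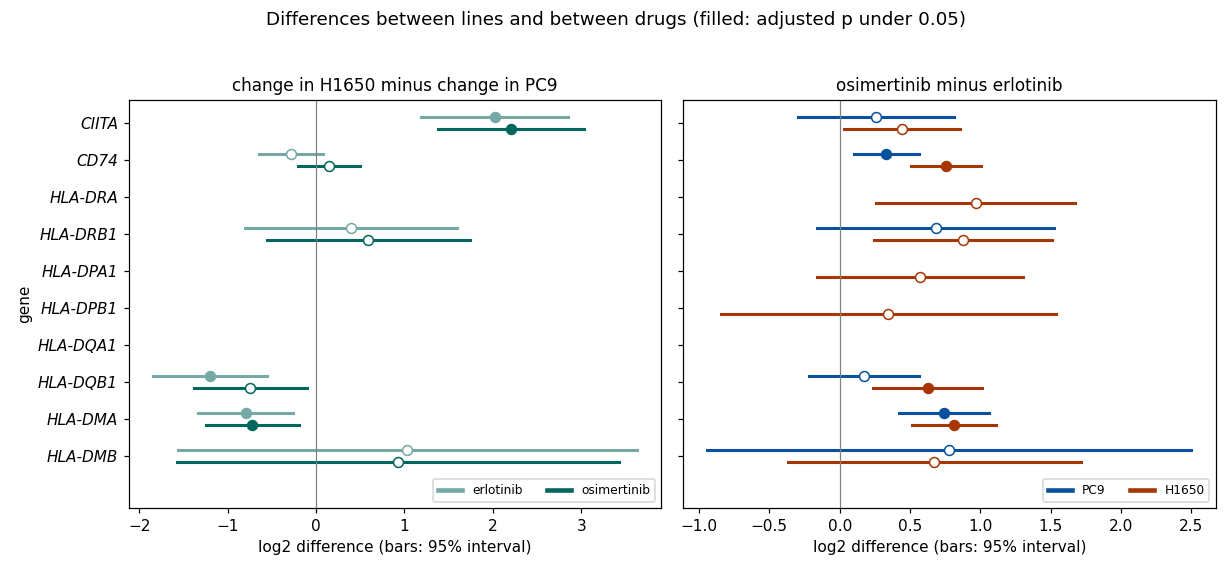
Left, the drug change in H1650 minus that in PC9, for erlotinib (light) and osimertinib (dark); right, osimertinib minus erlotinib in PC9 (blue) and H1650 (brown), all on the log2 scale (x axis). Bars are 95% intervals, filled points have an adjusted p under 0.05, and genes at or under the floor in a group have no point. CIITA lies at 2.02 and 2.21 on the left, while HLA-DMA lies at -0.80 and -0.72.

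Per kilobase of the deposited gene length, CD74, HLA-DMA, HLA-DRB1 and HLA-DQB1 stood in the same order at T0 in both lines. In PC9 T0, CD74 was highest at 4.40 ± 0.0215 CPM per kb, then HLA-DMA at 0.950 ± 0.0698, HLA-DRB1 at 0.468 ± 0.150 and HLA-DQB1 at 0.341 ± 0.0309, the last 2 with overlapping libraries. In H1650 T0, CD74 was at 3.07 ± 0.0297, HLA-DMA at 2.54 ± 0.584, HLA-DRB1 at 1.10 ± 0.269 and HLA-DQB1 at 0.750 ± 0.0151, with HLA-DRA at 1.00 ± 0.0140 overlapping HLA-DRB1. By the deposited lengths, the HLA-DMA mean was above that of CD74 in drug-treated H1650, with overlapping libraries under erlotinib. That order rests on a deposited CD74 length of 4780 bases, where its GENCODE exons cover 3184 (HLA-DMA, 2520 and 2534). Unscaled, CD74 was higher, at 20.6 ± 2.43 and 34.8 ± 7.31 CPM against 12.7 ± 1.54 and 22.3 ± 1.15 (erlotinib and osimertinib). The order of these 2 genes is thus uncertain. Unscaled, HLA-DQB1 was above HLA-DRB1 at T0 in both lines. It stood at 1.67 ± 0.151 against 0.575 ± 0.185 CPM in PC9, and at 3.68 ± 0.0738 against 1.35 ± 0.330 in H1650. The order of HLA-DRB1 and HLA-DQB1 thus rests on their deposited lengths, 1229 and 4904 bases. In H1650 with osimertinib, HLA-DMA stood at 8.84 ± 0.458, CD74 at 7.29 ± 1.53, HLA-DRB1 at 3.52 ± 0.0133, HLA-DRA at 3.08 ± 0.255 and HLA-DQB1 at 1.70 ± 0.296, and the HLA-DMA and CD74 means differed by about the SD of CD74. HLA-DPA1, CIITA and HLA-DMB followed at 0.571 ± 0.0846, 0.488 ± 0.0295 and 0.415 ± 0.000919, and HLA-DPB1 and HLA-DQA1 were lowest at 0.168 ± 0.00821 and 0.0363 ± 0.0219. These ranks also rest on the deposited lengths. CIITA was scaled by 20757 bases. Unscaled, it was at 10.1 ± 0.613 CPM in this group, above HLA-DQB1 (8.33 ± 1.45), HLA-DRB1 (4.33 ± 0.0163) and HLA-DRA (3.83 ± 0.318). HLA-DPB1 was scaled by 5222 bases, where its GENCODE exons cover 2791.

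Of the other class II genes, HLA-DOB, a chain of the inhibitor of HLA-DM, was the 1 of 8 that was tested. It had 14 and 14 reads in PC9 T0, 24 to 33 with erlotinib and 24 to 30 with osimertinib, where it rose by 0.96 (SE 0.398, adjusted p = 0.0343). In H1650 its changes were -0.38 and 0.06 (adjusted p = 0.362 and 0.923). HLA-DOA, its partner, had at most 3 reads in any library.

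Among 8 promoter factors, RFX5, the DNA-binding subunit of the RFX complex, rose in all 4 drug comparisons, by 1.16, 1.56, 0.45 and 0.79 (PC9 erlotinib, PC9 osimertinib, H1650 erlotinib, H1650 osimertinib; adjusted p at or below 6.8e-05). Its rise was larger in PC9, by -0.71 (SE 0.119) and -0.77 (SE 0.118) as H1650 minus PC9 (adjusted p = 1.8e-05 and 4.1e-06). NFYA, a subunit of NF-Y, fell by 0.25 and 0.26 in PC9. Of the 8 factors, 2, 2, 3 and 1 rose and 2, 3, 0 and 0 fell, in the same order. Over all tested genes, 32.7%, 32.7%, 18.0% and 17.8% rose and 29.1%, 28.7%, 18.5% and 17.9% fell. The list median was -0.05, -0.10, 0.05 and 0.13, beside 0.07, 0.06, 0.01 and 0 over all genes.

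The interferon gamma route to CIITA is given for 10 genes, 9 of them tested. IFNG, the cytokine, had 0 reads in all 12 libraries. IRF1, a direct activator of the CIITA promoter, rose in every drug comparison, by 1.87, 2.22, 0.81 and 1.18. Its rise was smaller in H1650, with H1650 minus PC9 at -1.06 and -1.04 (adjusted p = 1.7e-06 and 2.0e-06). IFNGR1, a receptor chain, rose in PC9 by 0.65 and 0.48 and was at -0.16 and -0.13 in H1650 (adjusted p = 0.256 and 0.364). Of the 9 tested, 4, 5, 3 and 4 rose and 0, 0, 1 and 1 fell, with list medians of 0.17, 0.37, 0.14 and 0.18. The shares over all tested genes were 32.7%, 32.7%, 18.0% and 17.8% higher and 29.1%, 28.7%, 18.5% and 17.9% lower.

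Of 12 genes of peptide handling and turnover, 8, 8, 5 and 7 rose and 2, 2, 0 and 1 fell, with list medians of 0.51, 0.63, 0.20 and 0.25. Over all tested genes, 32.7%, 32.7%, 18.0% and 17.8% rose and 29.1%, 28.7%, 18.5% and 17.9% fell. CTSH, a lysosomal aminopeptidase, rose most on average, by 2.24, 2.88, 0.75 and 0.95. CTSS, the protease of the last cut of the invariant chain, rose in PC9 by 1.44 and 2.30, from 5.79 ± 0.0864 CPM to 15.7 ± 1.49 and 28.6 ± 1.55, and in H1650 by 1.00 with osimertinib (SE 0.388, adjusted p = 0.0394) from 0.523 ± 0.0794 CPM. LGMN, an asparagine endopeptidase of lysosomes, fell by 0.30 and 0.20 in PC9. IFI30, the lysosomal thiol reductase, had 16 reads at most in any library, and no log2 change given for it passed (H1650, -0.23 and -0.24, adjusted p = 0.855 and 0.847).

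Of 5 genes known to repress CIITA in lymphocytes or tumours, 2, 2, 1 and 1 rose and 3, 3, 3 and 2 fell, with list medians of -0.33, -0.26, -0.22 and -0.09. The shares over all tested genes were 32.7%, 32.7%, 18.0% and 17.8% higher and 29.1%, 28.7%, 18.5% and 17.9% lower. EZH2, a histone H3 methyltransferase that is also abundant in dividing cells, fell by 2.17, 2.11, 0.41 and 0.58. PRDM1, a repressor of CIITA in plasma cells, rose in PC9 by 1.76 and 1.60 and was at 0.09 and 0.02 in H1650 (adjusted p = 0.800 and 0.977). Of 6 class I counterparts, 6, 6, 5 and 6 rose and none fell, beside the same shares over all tested genes. Their list medians were 0.78, 1.00, 0.32 and 0.63. NLRC5, the class I transactivator and a relative of CIITA, rose by 0.50, 0.38, 0.86 and 1.22, and its rise with osimertinib was larger in H1650 by 0.84 (SE 0.151, adjusted p = 3.9e-05). HLA-B, a class I heavy chain, rose by 1.30, 1.50, 0.23 and 0.62, and HLA-C, another, by 0.41, 0.61, 0.37 and 0.63.

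**Figure D4:**
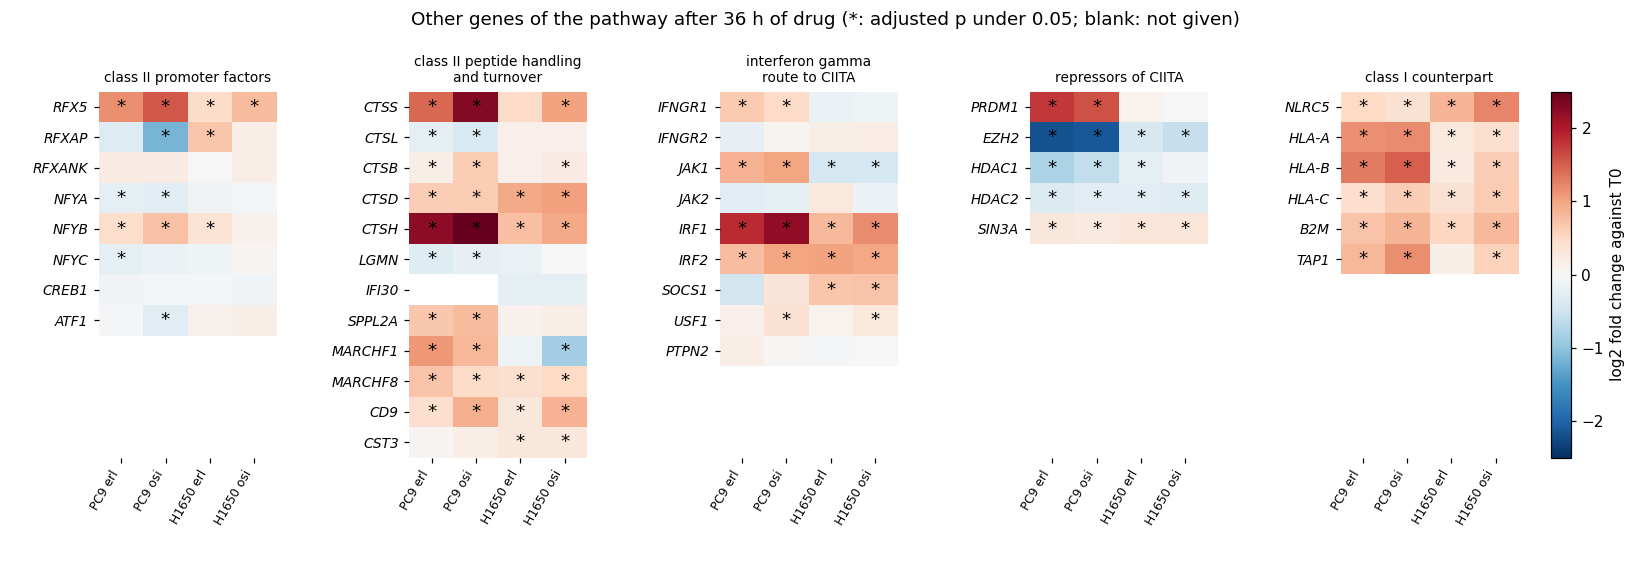
Log2 fold change against T0 (colour scale, red higher, blue lower) of the genes of 5 lists (rows) in the 4 drug comparisons (columns). Asterisks mark an adjusted p under 0.05 and blank cells were not given because reads were at or under the floor. IRF1 and RFX5 are red in each column, while PRDM1 is at 1.76 and 1.60 in PC9 and at 0.09 and 0.02 in H1650.

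Markers of blood cells moved with the groups in part. Their summed level was 5.55 to 7.11 CPM in PC9 T0, 10.2 to 11.7 with erlotinib and 23.0 to 24.7 with osimertinib, most of it ITGAM, and 54.8 to 59.4, 21.7 to 22.3 and 27.0 to 29.6 in H1650, most of it CSF1R. Single markers went different ways. CSF1R went from 54.6 ± 2.79 CPM in H1650 T0 to 19.6 ± 0.0643 with erlotinib and 24.4 ± 1.16 with osimertinib, and CD14 from 2.09 ± 0.608 to 2.01 ± 0.665 and 3.58 ± 0.534. In PC9, ITGAM went from 3.83 ± 0.789 to 6.34 ± 0.349 and 17.4 ± 1.22. Of the 12 markers, 5 had at most 3 reads in every library. Summed fibroblast markers were 16.9 to 45.8 CPM, most of it COL1A1 and, in H1650, COL3A1. The part of these markers in the results of either line was not tested.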

How the data were processed

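Poly(A) RNA-seq was analysed from 12 libraries, 2 in each of 6 groups (PC9 or H1650, at T0, with erlotinib or with osimertinib), grouped by the labels. The authors deposited 1 table of whole-number read counts per gene, made with the DolphinNext pipeline and featureCounts, with gene symbols and gene lengths. The submitters' processing notes name GRCh38 and DESeq2, and the aligner, annotation release and strand setting were not given in the sources used here. Gene positions are from GENCODE on GRCh38, a release whose exon lengths differ from the deposited lengths for part of the genes, so levels per kb rest on the deposited lengths.

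Counts were tested with edgeR 4.0.16 (R 4.3.3) by the quasi-likelihood test, with TMM normalization, filterByExpr by group and 1 fit over the 12 libraries. It kept 19108 genes and left out 41483. P-values were adjusted by Benjamini-Hochberg over all tested genes, and calls are at 0.05. Libraries of a group differed beyond sampling noise. As alternatives, the upper quartile or RLE normalization replaced TMM, DESeq2 1.42.0 replaced edgeR, and fits were made with no filter (at least 1 count over all libraries), at least 10 counts in every library, 1 fit per cell line, a replicate block and leaving out each library. The fit was tested on simulated counts of 16435 genes for 1 comparison, PC9 erlotinib against T0. Of 200 genes changed by 1 on the log2 scale, 158 were recovered, with 13 false calls. For genes at or under 3 reads per library in a group, no fitted fold is given, and ratios carry exact counting intervals.

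The 10 genes were named whatever their values. Of the other lists every gene was counted, and those named were IRF1, RFX5, CTSS, IFI30, NLRC5 and each list's called gene with the highest and the lowest mean change. Other names, such as DEXI, BRD2 and single markers, were picked with their values in view. A gene of these lists is not reported here. The genes and lists were chosen with earlier results of these data known.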

Additional observations from a re-analysis of the deposited data

Results flagged for a closer look

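Each of these was picked out because the change from T0 to 36 h differed between H1650 and PC9 by a direct test, the drug-by-line term of the edgeR quasi-likelihood fit with Benjamini-Hochberg adjustment over all tested genes. For CIITA the change in H1650 minus that in PC9 was 2.02 on the log2 scale with erlotinib (adjusted p = 0.000172) and 2.21 with osimertinib (adjusted p = 5.1e-05). For HLA-DQB1 with erlotinib it was -1.20 (adjusted p = 0.00265). For HLA-DMA it was -0.80 with erlotinib (adjusted p = 0.0150) and -0.72 with osimertinib (adjusted p = 0.0223). On the log2 scale CIITA thus rose more in H1650, while HLA-DMA, which CIITA is known to activate, rose more in PC9. In CPM, HLA-DMA went from 2.39 to 8.18 and 13.6 in PC9, and from 6.41 to 12.7 and 22.3 in H1650 (erlotinib and osimertinib). Its differences ran from -0.99 to -0.53 and from -0.91 to -0.45 over the alternative runs, part of which lost the call. Reads of exons that CIITA shares with DEXI, whose own differences were 1.81 and 1.76, could not be assigned. The same held for exons that HLA-DMA shares with BRD2, whose own differences were 0.10 and 0.29. What set these differences was not tested.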

How the results depend on the processing

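Of 208 recomputed counts of called genes, 180 stayed within 1.5 times the count reported. With DESeq2, the genes higher in H1650 with erlotinib went from 5 to 3, those lower in the osimertinib difference between lines from 1 to 0, and those higher with osimertinib than erlotinib in PC9 from 2 to 1. DESeq2 gave no adjusted p for 6 values, among them HLA-DPB1 in H1650 with osimertinib. With upper quartile normalization, which moved the median of all genes in PC9 to 0.17 with erlotinib and 0.14 with osimertinib (0.07 and 0.06 with TMM), the latter 2 counts were 2 and 1. Without the filter the osimertinib difference had 0 lower genes. Requiring 10 counts in every library gave 2 there, 4 higher in H1650 with osimertinib (9 reported) and 2 higher at T0 (6 reported), since genes low in PC9 were then left out. With 1 fit per line, 5 genes in place of 3 were higher with osimertinib than erlotinib in H1650. Leaving out single libraries gave 3 higher genes in each case in H1650 with erlotinib, 1 to 2 lower in the erlotinib difference, 0 to 2 lower in the osimertinib difference and 1 to 2 higher with osimertinib than erlotinib in PC9. Single genes turned direction only where a library was left out, and none of those was called. Their ranges were -0.22 (without PC9 erlotinib replicate 2) to 0.81 for HLA-DRB1 in PC9 with erlotinib, and -0.15 (without PC9 erlotinib replicate 2) to 5.06 for HLA-DMB there, which was -0.09 without PC9 T0 replicate 1. In the erlotinib difference they were -0.0081 (without PC9 erlotinib replicate 1) to 1.03 for HLA-DRB1 and -3.16 to 2.04 for HLA-DMB. In the osimertinib difference they were -0.072 (without H1650 osimertinib replicate 1) to 0.36 for CD74 and -3.27 to 2.41 for HLA-DMB. HLA-DMB ran from -0.70 (without PC9 osimertinib replicate 1) to 1.79 for osimertinib against erlotinib in PC9. CIITA at T0 ran from -0.44 to 0.25 (without PC9 T0 replicate 2) and was 0.01 without H1650 T0 replicate 1. The HLA-DMB values of 5.06, -3.16 and -3.27 were without PC9 T0 replicate 2, where T0 was left at 0 reads, and are no bounds. The causes were not tested.

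No pairing of the samples by replicate number was seen by 1 measure. Over 15 pairs of groups, the correlation of same-numbered deviations ran from -0.067 to 0.095, with 0 pairs over 0.1. It was taken over all tested genes, many with few reads, so it cannot show that the samples were unpaired. With the replicate block, 2 genes in place of 1 were lower in the osimertinib difference, and no other count of called genes left its reported value. Counts under 3 reads limit what can be said of HLA-DRA, HLA-DPA1 and HLA-DPB1 in PC9 and of HLA-DQA1 at T0.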

Other observations

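The genes whose log2 CPM followed these genes most closely over the 12 libraries are given as a description, since the libraries share lines and T0 groups. For CIITA they were SP100 (Pearson r 0.985), GALNT6 (0.973), APOL1 (0.954), OSBPL2 (0.952) and SEMA3F (0.952). SP100 is a component of PML nuclear bodies and APOL1 a trypanosome lytic factor of serum. For CD74 they were FADS2 (0.961), a fatty acid desaturase, PML (0.958), the organizer of PML nuclear bodies, CUTA (0.957), ARHGEF3 (0.953) and CASP10 (0.951). For HLA-DRA they included S100A8 (0.995), HSPA2 (0.995), LINC01405 (0.995) and EYA2 (0.993). HLA-DRA had at most 1 read in each PC9 library and at least 27 in each H1650 library, so these values rest largely on the difference between the lines.

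Among the tested genes with reads in every library of both lines, HLA-DQB1 and HLA-DMA followed each other at r 0.960 over the 12 libraries. CIITA stood at 0.291 with CD74 and 0.800 with HLA-DMA. These values pool the 2 lines, which differed in CD74 at T0 (14.7 CPM in H1650 and 21.1 in PC9). They do not describe how the genes moved together within a line.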
